A study of Mus musculus with 6 samples.

Results

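The transcripts of 10 genes of the circadian clock and of the PAR bZIP output factors that it drives were examined in the livers of HFD-fed mice with and without a hepatocyte-specific deletion of ferroportin (FPN), the cellular iron exporter. The genes are Arntl (also called Bmal1), Cry1, Per1, Per2, Per3, Nr1d1, Nr1d2, Dbp, Tef and Hlf. They were taken by symbol as 10 of the 45777 genes listed in the deposited table, and all 10 were among the 17274 genes tested, which had 0 reads in at most 1 library. Liver RNA was sequenced from 3 littermate control mice (LT, genotype Fpn flox/flox) and 3 hepatocyte-specific Fpn-KO mice (Fpn-LKO, genotype Alb-Cre; Fpn flox/flox), with 1 library per mouse. All were males of the C57BL/6 strain on a HFD, and the methods describe the animals of this cross as young adults when the diet began and housed in a light-dark cycle with free access to food. Both groups carry the floxed Fpn alleles, which came from a stock of another strain and were backcrossed to C57BL/6J. Alb-Cre, driven by the albumin promoter, serves to recombine them in hepatocytes, and the paper describes the deletion as hepatocyte-specific. Recombination in other cells of the liver was not examined here, and no mice with Alb-Cre alone were among these samples. Neither the hour at which these livers were taken nor the length of their HFD feeding is given in the sources used here.

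The clock of a liver cell is a loop of transcription. The activators BMAL1 (encoded by Arntl) and CLOCK bind E-box elements and switch on the Per and Cry genes, whose products repress the activators, and the genes Nr1d1 and Nr1d2, whose products REV-ERBα and REV-ERBβ repress Arntl and Cry1. The same activators drive Dbp, and the PAR bZIP factors DBP, TEF and HLF bind D-box elements, among them those of the Per genes, and control genes of xenobiotic, heme and lipid metabolism in the liver. In a mouse liver the transcripts of Nr1d1 and Dbp peak in the light phase, those of the Per genes around the change to darkness, Cry1 in the dark phase, and Arntl around the return of light, so that the level of each depends on the hour of sampling.

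Total counts per library lay between 43086184 and 47778683, the labels put the 6 libraries in a single batch, and values are CPM, counts scaled to the library total after TMM normalization. Slc40a1, the deleted gene, had 126 to 180 CPM in LT livers and 143 to 176 CPM across livers labelled Fpn-LKO (log2 fold change 0.0073 ± 0.16 SE), so its count was not lower in them. A count over the whole gene can also hold reads from exons outside the deleted part and from cells without Cre, and each direction given below rests on the labels. The hepatocyte markers Alb, Apoa1, Ttr, Serpina1c, Cps1 and Cyp2e1 summed to 63694 to 79237 CPM in LT livers and 66861 to 73827 CPM across livers labelled Fpn-LKO. For other cell types, the summed levels of LT and of livers labelled Fpn-LKO overlapped for 7 Kupffer cell and macrophage markers (201 to 262 and 167 to 374 CPM), 5 endothelial markers (244 to 300 and 233 to 249 CPM), 5 stellate cell markers (351 to 420 and 377 to 398 CPM) and 5 blood markers (351 to 941 and 474 to 1243 CPM). None of the 5 lymphocyte markers passed the filter on low counts. In whole liver, fewer cells of a type and less RNA per cell cannot be told apart.

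The comparison of the genotypes asks whether loss of hepatocyte FPN goes along with another level of the clock transcripts. None of the 10 genes had an adjusted p-value below 0.05 in the quasi-likelihood test of edgeR, adjusted after Benjamini-Hochberg over all genes tested, where 0.0232% of genes were called. The adjusted p-values of the 10 genes lay between 0.570 and 0.995. Without adjustment 2 of the 10, Per3 and Tef, lay below 0.05 in the same test, against 4.8% of all genes. Both were lower in livers labelled Fpn-LKO, as were 2.19% of all genes, while 2.62% were higher. The groups of these 2 genes were also the only ones of the 10 that did not overlap, which held for 10.6% of all genes, with 5.34% lower and 5.25% higher. Of the 10 log2 fold changes 5 were positive and 5 negative, with a median of -0.024, against -0.0040 over all genes tested. For any 1 gene, exact permutation of 3 mice against 3 reaches 0.1 at best.

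**Figure D1:**
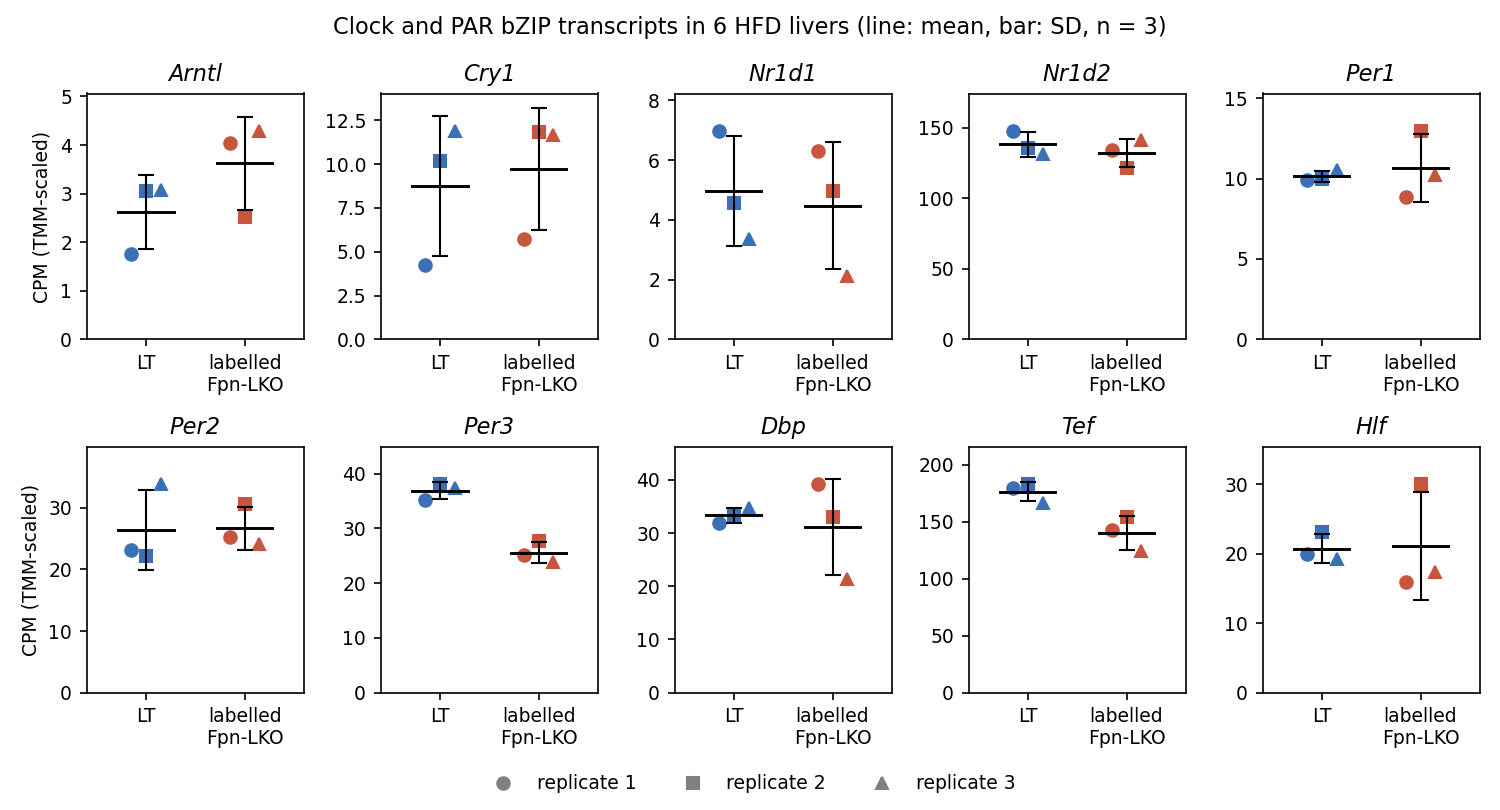
CPM of the 10 transcripts in each of the 6 livers, with LT in blue and livers labelled Fpn-LKO in red, symbols for replicates 1 to 3, lines for the means and bars for the SD (n = 3 each). The groups are apart for Per3 and Tef and overlap for the other 8 transcripts.

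Arntl encodes the activator BMAL1 and lies on chromosome 7 of GRCm38 from 113178471 to 113314126. It had 1.75, 3.05 and 3.07 CPM across the LT livers (replicates 1 to 3) and 4.05, 2.53 and 4.29 CPM across livers labelled Fpn-LKO. Replicates 1 and 3 labelled Fpn-LKO were above every LT liver, and replicate 2 lay within the range of LT. The log2 fold change was 0.47 (standard error 0.32, 95% interval -0.28 to 1.21, unadjusted p = 0.184 and adjusted p = 0.982 in the quasi-likelihood test of edgeR). Arntl was the lowest of the 10 transcripts with 87 to 199 reads per library, and a 2-fold higher level lies inside the interval. Its exons share 33 bases with the antisense gene Gm45355. A REV-ERB response element stands just behind 1 of its start sites in RefSeq, at chr7:113207532-113207557 (GRCm38.p6, plus strand, element in capitals).
Arntl: ggcagaaagTAGGTCAgggacggagg

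Clock, which encodes the partner of BMAL1, had 64.6, 57.4 and 56.6 CPM in LT livers and 82.9, 62.0 and 63.7 CPM across livers labelled Fpn-LKO (log2 fold change 0.22 ± 0.14 SE, adjusted p = 0.982 in the quasi-likelihood test of edgeR). Replicates 2 and 3 labelled Fpn-LKO lay within the range of LT, and only replicate 1 was above it. Npas2, which can replace Clock, and Arntl2 had 0 reads in more than 1 library and were not tested.

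The period genes encode the repressors that give the loop its delay. Per1, on chromosome 11 from 69095108 to 69109965, had 9.92, 9.998 and 10.5 CPM in LT livers and 8.83, 12.96 and 10.2 CPM across livers labelled Fpn-LKO (log2 fold change 0.072, 95% interval -0.32 to 0.47). Per2, on chromosome 1 from 91415977 to 91459351, had 23.1, 22.2 and 33.8 CPM in LT livers and 25.2, 30.6 and 24.1 CPM across livers labelled Fpn-LKO (log2 fold change 0.016, 95% interval -0.42 to 0.46). Both genes overlapped between the groups, their extremes came from 1 library each, and the intervals still hold changes of -20.0% to 38.2% for Per1 and of -25.5% to 37.1% for Per2.

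Per3, another period gene, lies on chromosome 4 from 150997018 to 151044707 on the minus strand. It had 35.2, 38.1 and 37.4 CPM in LT livers and 25.2, 27.7 and 23.9 CPM across livers labelled Fpn-LKO. Every liver labelled Fpn-LKO was lower than every LT library, with means of 36.9 ± 1.51 and 25.6 ± 1.89 CPM (SD, n = 3 each). The log2 fold change was -0.53 (standard error 0.11, 95% interval -0.77 to -0.28), or 0.694-fold. It had an unadjusted p of 0.00129 and an adjusted p of 0.570 in the quasi-likelihood test of edgeR, so it did not pass over all genes. The exact two-sided permutation test gave p = 0.1, the smallest possible. With DESeq2's Wald test, which called 0.417% of all genes, Per3 was the 1 gene of the 10 that passed (adjusted p = 0.0403), whereas it did not pass with edgeR's exactTest (adjusted p = 0.182), which called 0.365% of all genes. The separation depended on the unit. In the authors' TPM, Per3 had 8.55, 8.03 and 7.21 in LT and 5.33, 7.29 and 5.34 in livers labelled Fpn-LKO, where replicate 2 exceeded the lowest LT library.

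The ratio of Per3 to Per2, which sets both genes against each other within a library and needs no scaling between libraries, was 1.52, 1.72 and 1.11 in LT and 0.997, 0.903 and 0.992 in livers labelled Fpn-LKO. Each of the 3 values labelled Fpn-LKO was thus below each LT value. The ratio was chosen after the values were seen, so no test is given.

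The promoter of Per3 is shown because it carries the elements that PAR bZIP factors bind. The 250 bases before its RefSeq start site, at chr4:151044666-151044915 (GRCm38.p6, minus strand), hold 2 D-boxes, in capitals, with 39 bases between them.
Per3: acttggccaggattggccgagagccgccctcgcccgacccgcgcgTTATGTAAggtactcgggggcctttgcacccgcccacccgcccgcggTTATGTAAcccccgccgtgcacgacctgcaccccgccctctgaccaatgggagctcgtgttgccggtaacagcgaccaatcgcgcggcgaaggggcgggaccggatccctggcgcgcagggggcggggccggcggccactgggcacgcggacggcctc

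Promoter windows of 250 bases before to 50 bases after the start were found in RefSeq for 9 of the 10 genes, with 12 windows in all. Per2 had no window and was not searched. They were searched on both strands for the E-box (CACGTG), the D-box (TTATGTAA or TTACGTAA), the REV-ERB response element (TAGGTCA or TGGGTCA) and the cAMP response element (TGACGTCA), letters that do not overlap each other at any of the sites found. Among all 32817 such windows of the mouse, 7.15% hold the E-box, 1.05% a D-box, 6.46% the REV-ERB element and 1.79% the cAMP element. Per3 was the only 1 of the 9 genes with a D-box, and only 8 windows of the 32817 hold 2 or more. The windows of Dbp, Nr1d1 and Nr1d2 held none of these elements. E-boxes were found in Cry1 (chr10:85185099-85185124, minus strand), in Per1 (chr11:69098773-69098798, plus strand) and before each of 2 start sites of Tef (chr15:81802536-81802561 and chr15:81811266-81811291, plus strand), and the cAMP element in Hlf (chr11:90390910-90390935, minus strand). They are given with the element in capitals.
Cry1: tgccggtggtCACGTGgggtgcatgc
Per1: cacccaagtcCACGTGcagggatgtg
Tef (upstream start): gctgtggctcCACGTGctgcagctgg
Tef (downstream start): cctggcccagCACGTGtctacatcgt
Hlf: tgcgggcccTGACGTCActcttgtca

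Genes with a D-box in such a window numbered 332, of which 126 were tested. Their median log2 fold change was -0.049, against -0.0040 for all genes, and 10 of them, or 7.94%, had an unadjusted p-value below 0.05 in the quasi-likelihood test of edgeR, against 4.8% of all genes. Without Per3 these were 9 of 125. The groups did not overlap for 13 of the 126, or 12 of 125 without Per3, against 10.6% of all genes. Of the 8 genes with 2 or more D-boxes 6 were tested, and 4 of these had a negative log2 fold change, with a median of -0.14 that includes Per3. Smim10l1 had 115 ± 10.8 and 99.7 ± 6.48 CPM (SD, n = 3 each) without overlap (log2 fold change -0.21, unadjusted p = 0.111 in the quasi-likelihood test of edgeR). The other values were -0.56 for Gm38529, -0.076 for Abhd11 and 0.35 for H3c2, all with overlapping groups. Alb, the albumin gene, had 41541 ± 5734 CPM in LT livers and 41915 ± 4367 CPM across livers labelled Fpn-LKO (SD, n = 3 each). A match of these letters is a description of the sequence and not a site of binding.

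Cry1 encodes a cryptochrome, the partner of the period proteins in repression, and lies on chromosome 10 from 85131700 to 85185054. It had 4.26, 10.2 and 11.9 CPM in LT livers and 5.72, 11.8 and 11.7 CPM across livers labelled Fpn-LKO. Within each group replicate 1 was far below the others, and the groups overlapped over nearly their whole range. The log2 fold change was 0.15 with a 95% interval from -0.82 to 1.12, so that at this spread neither a fold change of 0.567 nor one of 2.18 lies outside the interval. Cry2, the second cryptochrome, had 14.3 ± 1.66 and 16.1 ± 1.69 CPM (SD, n = 3 each) with overlapping groups.

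The REV-ERB genes differed from each other in spread. Nr1d1, on chromosome 11 from 98767932 to 98775377, had 6.97, 4.55 and 3.36 CPM in LT livers and 6.29, 4.97 and 2.13 CPM across livers labelled Fpn-LKO, a 3.27-fold range over the 6 livers (log2 fold change -0.15, 95% interval -1.15 to 0.84). Nr1d2, on chromosome 14 from 18204056 to 18239106, had 148, 135 and 131 CPM in LT livers and 134, 121 and 141 CPM across livers labelled Fpn-LKO, a 1.22-fold range (log2 fold change -0.063, 95% interval -0.32 to 0.20). Both overlapped between the groups. For Nr1d2 the interval leaves room for changes of -20.1% to 14.6% only, which makes it the most tightly bounded of the 10 genes beside Per3 and Tef. The exons of Nr1d1 share 263 bases with those of Thra, a gene on the other strand with a mean of 3.22 CPM, and whether counting used the strand is not given in the sources used here, so the level of Nr1d1 is uncertain.

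Tef encodes a PAR bZIP factor and lies on chromosome 15 from 81802673 to 81826863. It had 180, 183 and 167 CPM in LT livers and 142, 154 and 124 CPM across livers labelled Fpn-LKO. All livers labelled Fpn-LKO were below every LT library, with means of 176 ± 8.63 and 140 ± 15.1 CPM (SD, n = 3 each). The log2 fold change was -0.33 (standard error 0.12, 95% interval -0.61 to -0.050), or 0.795-fold. The unadjusted p was 0.0268 and the adjusted p 0.982 in the quasi-likelihood test of edgeR, so Tef did not pass over all genes. In TPM the groups overlapped, with 57.4, 52.5 and 43.5 in LT and 40.0, 52.8 and 37.3 in livers labelled Fpn-LKO. Exons of Tef share 193 bases with Gm17597, an antisense gene with a mean of 0.260 CPM.

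Dbp, the PAR bZIP factor most directly driven by the clock, lies on chromosome 7 from 45705100 to 45710203. It had 31.8, 33.4 and 34.8 CPM in LT livers and 39.2, 33.1 and 21.3 CPM across livers labelled Fpn-LKO. The LT livers were close together, and livers labelled Fpn-LKO held both the highest and the lowest value (log2 fold change -0.095 ± 0.21 SE, 95% interval -0.58 to 0.39). Without replicate 3 of these libraries the log2 fold change was 0.12. Exons of Dbp share 539 bases with Sphk2 on the other strand, which had a mean of 10.1 CPM. Hlf, the remaining PAR bZIP gene, on chromosome 11 from 90336535 to 90390917, had 19.9, 23.1 and 19.2 CPM in LT livers and 16.0, 30.0 and 17.3 CPM across livers labelled Fpn-LKO. Here too livers labelled Fpn-LKO held both extremes, and the log2 fold change of 0.026 (95% interval -0.54 to 0.59) was -0.32 without their replicate 2.

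**Figure D2:**
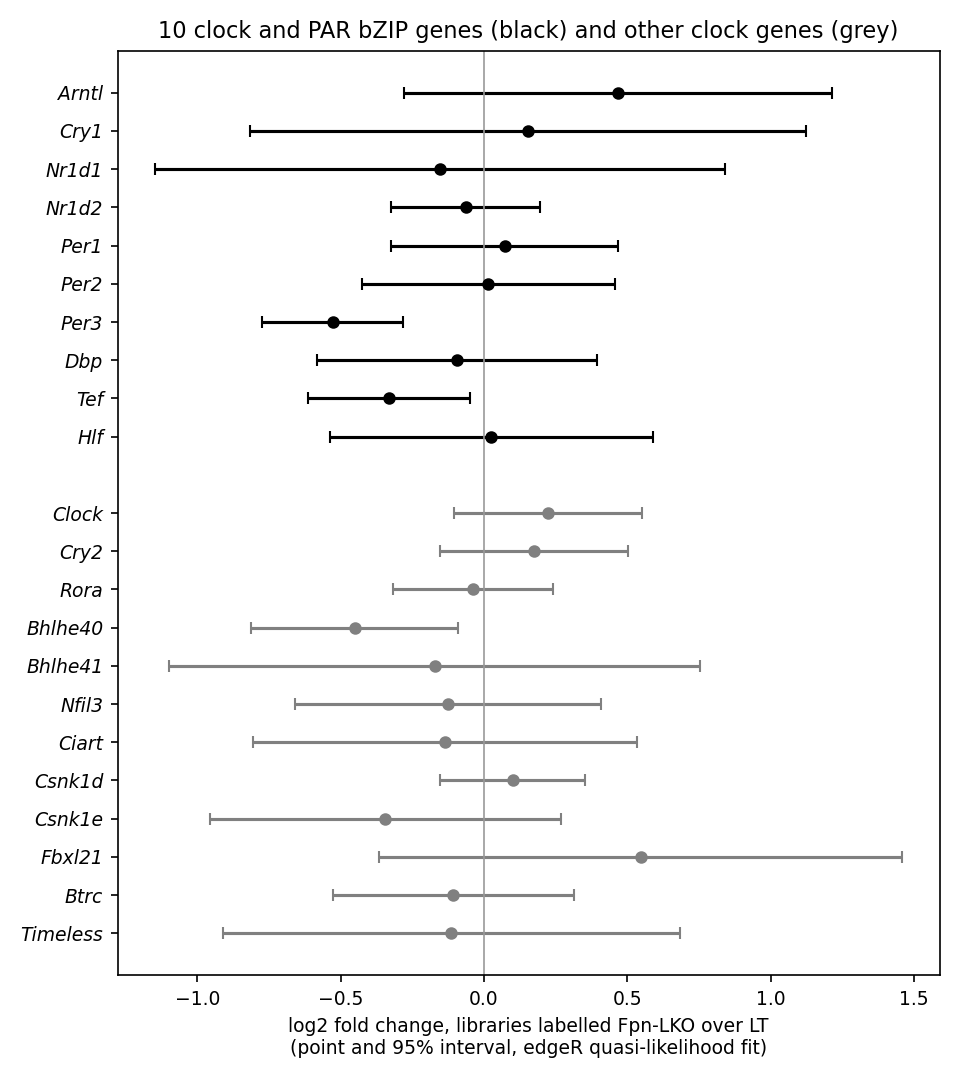
Log2 fold change of livers labelled Fpn-LKO over LT, with the 95% interval of edgeR's quasi-likelihood fit, for the 10 genes (black) and the other clock genes named in the text (grey). The intervals of Per3, Tef and Bhlhe40 do not reach 0, although none of the 3 passed adjustment over all genes.

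Levels were compared between genes only per transcript length, in the authors' TPM. Over the 6 livers Tef had the highest median (48.0 TPM, range 37.3 to 57.4), followed by Nr1d2 (37.9, range 32.5 to 44.7) and Dbp (27.0, range 18.8 to 33.5). The ranges of each neighbouring pair among these 3 overlapped. A gap without overlap separated Dbp from Per3, which had a median of 7.25 TPM. Below it came Per2 (5.52), Hlf (4.69), Cry1 (4.33), Nr1d1 (2.37), Per1 (1.78) and Arntl (0.673), each overlapping in range with the next.

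How far the mice of 1 genotype differed from each other is a measure that does not use the difference between the genotypes. The test of that difference does rest on this spread. The SD of log2 CPM within a genotype, pooled over both groups, was 0.70 for Cry1 and 0.67 for Nr1d1, against a median of 0.19 over the 8998 genes with a mean of at least 5 CPM. Against these genes Cry1 lay at the 97.0th and Nr1d1 at the 96.7th percentile, although Nr1d1 (4.71 CPM) and Arntl (3.12 CPM) are themselves below that level. Arntl had an SD of 0.43, Hlf 0.36, Dbp 0.32, Per2 0.27 and Per1 0.20, all above this median. Tef had an SD of 0.12, Nr1d2 of 0.10 and Per3 of 0.085, below the median, with Per3 at the 8.15th percentile. Among those of the 8998 genes that lay within 1.5-fold of its own level, Cry1 was at the 96.6th percentile, Nr1d1 at the 95.3th, Hlf at the 87.9th, Dbp at the 86.7th and Per2 at the 78.6th. On this measure Per1 was below the median, at the 43.8th percentile, as were Tef at the 28.2th, Nr1d2 at the 17.9th and Per3 at the 11.2th. Per3 and Tef, whose groups did not overlap, were thus among the 3 members that varied least between mice of a genotype. A small spread within groups favours both a small p-value and groups that do not overlap, so it is not separate evidence. The SD was larger in livers labelled Fpn-LKO for Dbp (0.45 against 0.064 in LT), Hlf (0.49 against 0.14) and Per1 (0.28 against 0.047). It was also larger in them for Nr1d1 (0.80 against 0.52), Tef (0.16 against 0.071), Per3 (0.11 against 0.059) and Nr1d2 (0.11 against 0.088). It was smaller in them for Per2 (0.18 against 0.33), Cry1 (0.59 against 0.79) and Arntl (0.41 against 0.45). These differences were not tested.

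**Figure D3:**
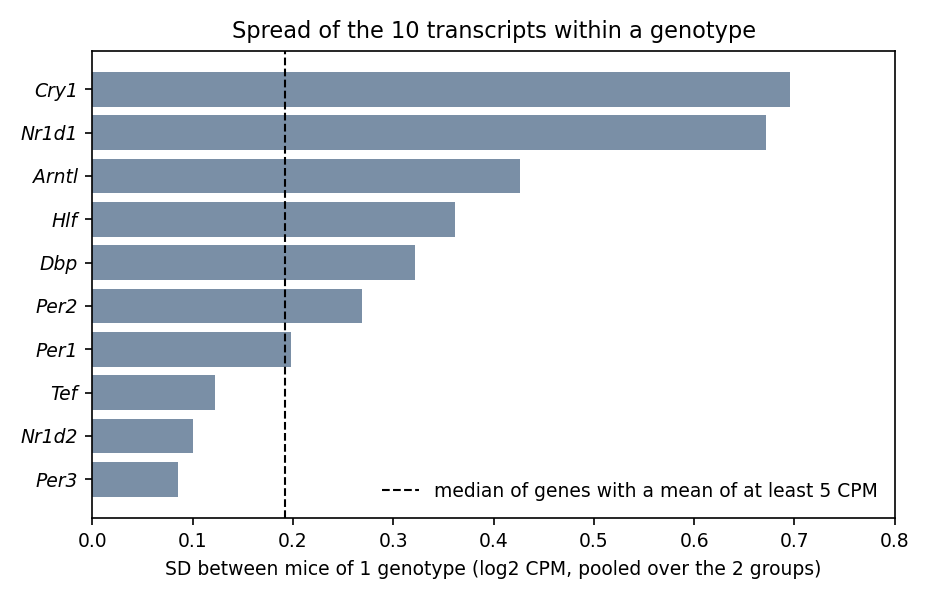
SD of log2 CPM between mice of 1 genotype, pooled over the 2 groups, for the 10 transcripts, with the median of the 8998 genes of at least 5 CPM as a dashed line. Cry1 (0.70) and Nr1d1 (0.67) spread most, and Per3 (0.085) least.

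Cry1 and Nr1d1 were the members that varied most. In each group the liver with the most Nr1d1 had the least Cry1, and it was replicate 1 in both. The other livers did not all follow this order, since of replicates 2 and 3 labelled Fpn-LKO the former had slightly more Cry1 and also more Nr1d1. The ratio of Cry1 to Nr1d1 was 0.611, 2.23 and 3.54 in LT and 0.910, 2.38 and 5.46 in livers labelled Fpn-LKO. The ratios had means of 2.13 ± 1.47 and 2.92 ± 2.32 (SD, n = 3 each), so they varied more within a genotype than their means differed. The pair was picked after the values were seen, so no test is given. The labels do not say that a shared replicate number marks a shared hour or day of sampling.

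**Figure D4:**
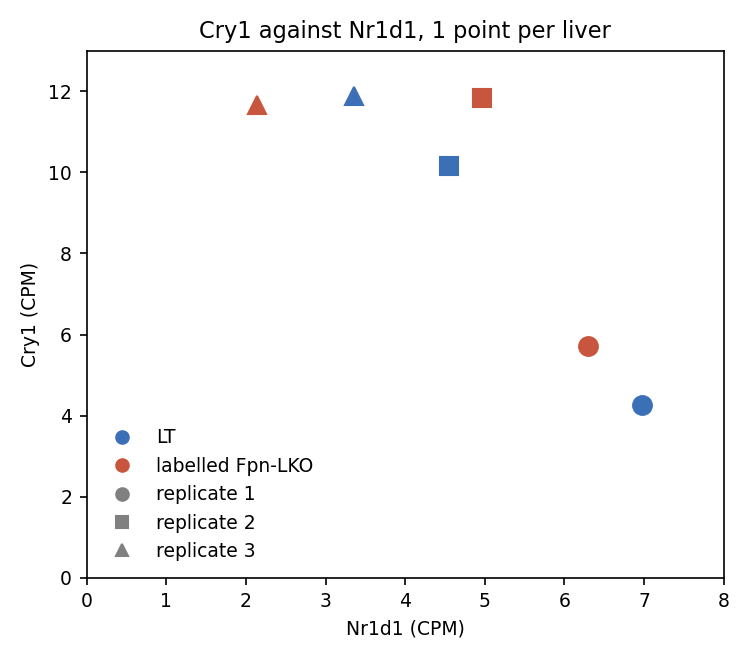
Cry1 against Nr1d1 in CPM, with 1 point for each of the 6 livers, coloured by group and shaped by replicate number. Replicate 1 of each group has the highest Nr1d1 (6.97 and 6.29 CPM) and the lowest Cry1 (4.26 and 5.72 CPM).

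Arntl was set against each of the other 9 genes across the 6 livers, since it drives or is repressed by them. By Pearson's r the largest relation was with Tef (Pearson's r = -0.74, exact permutation p = 0.0958; Spearman's rho = -0.71, exact permutation p = 0.136). By Spearman's rho it was with Hlf (-0.77, exact permutation p = 0.103). Over the 9 relations the Benjamini-Hochberg adjusted p of r with Tef was 0.658 (exact permutation), and none of the 9 passed for r or rho. Without the 2 livers farthest from the median of Arntl, LT replicate 1 and the liver labelled Fpn-LKO replicate 3, r with Tef was -0.42. For Nr1d1, the repressor of Arntl, r was -0.60 (exact permutation p = 0.206), rho -0.66 (exact permutation p = 0.175), and r was 0.47 without the same 2 livers, so that in CPM this relation rests on them. Centred on the mean of each genotype, r was -0.62 with Tef and -0.60 with Nr1d1. Both relations depended on the unit. For Tef, on log2(TPM + 1) r was -0.88 (exact permutation p = 0.00417, adjusted over the 9 relations 0.0375) and rho -0.94 (exact permutation p = 0.0167, adjusted 0.15). There it was the 1 relation of the 9 that passed for r, and none passed for rho. Arntl itself had only 0.298 to 1.52 TPM, and its median of 0.673 lay below the 1 that was added. Its TPM did not follow its reads, since replicates 1 and 3 labelled Fpn-LKO had 193 and 199 reads but 0.729 and 1.52 TPM. For Nr1d1 on the same scale r was -0.87 (exact permutation p = 0.0111, adjusted 0.05), -0.95 when centred on each genotype and -0.47 without the 2 livers, where the sign did not change.

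The rest of the clock was described by a list of 16 genes, of which 14 were tested. Of these 5 had a positive and 9 a negative log2 fold change, with a median of -0.11 against -0.0040 over all genes. None had an adjusted p-value below 0.05 in the quasi-likelihood test of edgeR (0.982 to 0.995). The groups of 2 of the 14 did not overlap, against 10.6% of all genes, and 1 of the 14 had an unadjusted p-value below 0.05, against 4.8% of all genes. The latter was Bhlhe40, which encodes DEC1, a repressor that competes for E-boxes. It had 54.6, 54.4 and 60.3 CPM in LT livers and 32.6, 43.4 and 48.0 CPM across livers labelled Fpn-LKO, where each value was lower than in any LT library (log2 fold change -0.45 ± 0.15 SE). Its paralog Bhlhe41 had 1.07 ± 0.413 and 0.952 ± 0.197 CPM (SD, n = 3 each).

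Rora, whose product activates through the element that REV-ERB proteins occupy, had 99.3 ± 11.4 and 96.8 ± 5.002 CPM (SD, n = 3 each). Nfil3, a bZIP repressor that competes with the PAR factors for D-boxes, had 10.99, 13.99 and 20.4 CPM in LT livers and 13.4, 12.6 and 15.6 CPM across livers labelled Fpn-LKO. Ciart, a repressor of the CLOCK-BMAL1 complex, had 8.26 ± 0.944 and 7.51 ± 2.95 CPM (SD, n = 3 each). The kinases and ubiquitin ligase subunits that set the stability of period and cryptochrome proteins had log2 fold changes of 0.10 for Csnk1d, -0.34 for Csnk1e and -0.11 for Btrc, and their groups overlapped. Fbxl21 and Timeless were low, with means of at most 1.97 CPM, and log2 fold changes of 0.55 and -0.11.

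Genes known as outputs of the clock in liver were described by a list of 15, all tested. Of these 5 had a positive and 10 a negative log2 fold change (median -0.12), none passed over all genes in the quasi-likelihood test of edgeR (adjusted p from 0.877 to 0.995), and 3 of 15 had an unadjusted p-value below 0.05, against 4.8% of all genes. Rgs16, a regulator of G protein signalling, had 75.3, 55.8 and 53.4 CPM in LT livers and 11.2, 28.5 and 32.8 CPM across livers labelled Fpn-LKO, without overlap (log2 fold change -1.35 ± 0.37 SE). Cyp7a1, the rate-limiting enzyme of bile acid synthesis, had 357, 163 and 343 CPM in LT livers and 79.3, 192 and 50.4 CPM across livers labelled Fpn-LKO, where replicate 2 exceeded the lowest LT library (log2 fold change -1.42 ± 0.51 SE). Elovl3, a fatty acid elongase, had 34.3, 41.4 and 22.4 CPM in LT livers and 57.9, 94.3 and 32.7 CPM across livers labelled Fpn-LKO (log2 fold change 0.91 ± 0.38 SE).

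Known targets of the PAR bZIP factors were described by a list of 15, of which 14 were tested. Of these 5 had a positive and 9 a negative log2 fold change (median -0.12), and none had an unadjusted p-value below 0.05, against 4.8% of all genes, in the quasi-likelihood test of edgeR. The smallest belonged to Aldh1a1, a retinal dehydrogenase, with 1684 ± 197 and 2211 ± 207 CPM (SD, n = 3 each) and groups that did not overlap (log2 fold change 0.39). Alas1, the first enzyme of heme synthesis, had 1474, 855 and 1185 CPM in LT livers and 910, 970 and 915 CPM across livers labelled Fpn-LKO (log2 fold change -0.33). Por, the electron donor of the cytochromes P450, had 326, 380 and 286 CPM in LT livers and 188, 328 and 274 CPM across livers labelled Fpn-LKO (log2 fold change -0.33). Both overlapped between the groups.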

How the data were processed

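Liver RNA of 6 mice was sequenced as 1 library each. Reads were mapped by the authors on mm10, for which the submitters' processing notes list HISAT2 2.1.0, Bowtie2 2.3.4.1 and StringTie 2.1.3b. The authors deposited read counts per RefSeq gene without normalization, with FPKM and with TPM scaled to the same total in every library. The labels give a stranded mRNA kit, the methods a stranded total RNA kit with rRNA removal. Groups and replicate numbers came from the sample titles.

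Counts were tested with edgeR 4.0.16 in R 4.3.3 (quasi-likelihood test, TMM, Benjamini-Hochberg adjustment, threshold 0.05) on genes with 0 reads in at most 1 library. The 95% intervals came from the F statistic. The log2 CPM used for spread and relations had 0.1 added. The methods name exactTest, which was an alternative, as were DESeq2 1.42.0, limma 3.58.1 on TPM, other scalings and filters, the replicate number as a block, and leaving out each library. FPKM was not used. The 10 genes, the lists and the rule for naming genes were chosen with earlier results of these data known. The rule named the 10 genes, Slc40a1, the other clock genes, up to 3 genes of each further list by smallest p if their mean reached 1 CPM, and the 5 nearest patterns of Dbp, Arntl and Per3. Some genes that it names are not reported here. The genes with several D-boxes were picked by sequence afterwards. Promoters are RefSeq's, on GRCm38.p6, as are gene positions, and shared exons were taken from the GENCODE annotation. P-values measure the spread between these 3 mice a group.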

Additional observations from a re-analysis of the deposited data

How the results depend on the processing

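Over all genes 4 passed adjustment in the quasi-likelihood test of edgeR, a count that was 72 with DESeq2's Wald test, 63 with exactTest, 7 with limma on log2(TPM + 1) and on log2(TPM + 0.1), and 0 with the replicate number as a block. It ranged from 0 to 6 when single libraries were left out, with 0 without LT replicate 2, 1 without LT replicate 1, LT replicate 3 or Fpn-LKO replicate 2, and 6 without Fpn-LKO replicate 3. Of the 10 clock genes 0 passed, also in every alternative but DESeq2, where 1 did, which was Per3 (log2 fold change -0.52). Before adjustment 2 lay below 0.05 with edgeR. Per3 and Tef kept their direction in all 16 alternatives, from -0.59 to -0.36 and from -0.40 to -0.24, but with limma on TPM their unadjusted p-values lay above 0.05, and for Tef also with exactTest (0.0579) and without LT replicate 1 or 2 or Fpn-LKO replicate 1 or 3. For Arntl, 14 alternatives gave a positive value, and the other 2, which need a mean of 1 TPM, gave none.

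The direction of 7 genes reversed in 19 of 158 cases, never past the threshold. Over the fits that left out 1 library, the log2 fold change ran from -0.091 to 0.19 for Per1, -0.095 to 0.24 for Per2, -0.18 to 0.44 for Cry1, -0.48 to 0.18 for Nr1d1, -0.29 to 0.12 for Dbp and -0.32 to 0.19 for Hlf. Without LT replicate 1 the log2 fold change was -0.070 for Per2, -0.18 for Cry1, 0.18 for Nr1d1 and -0.0027 for Hlf. Without LT replicate 2 it was -0.090 for Per2, and without LT replicate 3 -0.024 for Hlf. Without Fpn-LKO replicate 2 it was -0.091 for Per1, -0.095 for Per2, -0.011 for Cry1 and -0.32 for Hlf, and without Fpn-LKO replicate 3 it was 0.18 for Nr1d1 and 0.12 for Dbp. With limma on log2(TPM + 1), with and without the filter, it was 0.028 for Nr1d2 and 0.0026 for Dbp, and on log2(TPM + 0.1) 0.028 and 0.0012. The cause was not tested. With the replicate block Hlf was at -0.028. The block rests on a shared replicate number, and livers that share it also have adjacent library numbers. The labels do not say that such livers were sampled together. Deviations of same-numbered libraries correlated at 0.32, 0.079 and 0.20 across genes, those of the other pairs at -0.27 to 0.10. Only Fpn-LKO replicate 2 correlated best with another number, at 0.10 with LT replicate 3. Under the block Per3 had -0.53 (unadjusted p = 0.00340 by edgeR) and Cry1 0.20. Of the 9 relations of Arntl 0 passed for r with TMM and with RLE size factors. On log2(TPM + 1), where Arntl had a median of 0.673 TPM, 1 passed for r, with Tef. Of rho none passed. With limma on TPM the median of all genes was 0.083 to 0.097, and 0.024 without the filter, in place of -0.0040. Arntl (87 to 199 reads per library) and Nr1d1 (99 to 347) had the fewest reads of the 10 genes.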

Other observations

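Hormone, feeding and temperature signals can act on clock genes, and genes that respond to them were described in the same libraries in the quasi-likelihood test of edgeR, in which none passed over all genes. Over all genes tested, 8529 of 17274 had a positive log2 fold change, 4.8% an unadjusted p-value below 0.05 and 10.6% groups without overlap. Of 9 glucocorticoid-responsive genes 6 had a positive log2 fold change and 3 a negative one (Fkbp5 -0.11, Sgk1 -0.089, Zbtb16 -0.29). An unadjusted p-value below 0.05 was found for 2 of the 9. Mt2, a metallothionein, had 1.33, 1.75 and 5.90 CPM in LT livers and 4.65, 12.3 and 35.5 CPM across livers labelled Fpn-LKO, Mt1 had 43.3 ± 43.4 and 125 ± 99.9 CPM, and Dusp1, a phosphatase, had 5.83 ± 0.530 and 8.73 ± 2.82 CPM (SD, n = 3 each). Only Dusp1 of the 9 had groups that did not overlap. Of 10 CREB and immediate-early genes 8 were positive, with a median log2 fold change of 0.51, and 1 had an unadjusted p-value below 0.05. Btg2, an antiproliferative gene, had 4.32 ± 0.977 and 7.38 ± 2.13 CPM without overlap, Crem 16.6 ± 3.61 and 21.3 ± 3.80 CPM, and Ier2 3.89 ± 0.523 and 5.403 ± 2.21 CPM (SD, n = 3 each).

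Of 10 genes of feeding and insulin response 6 were negative (median log2 fold change -0.14). Fasn, the fatty acid synthase, had 88.8, 177 and 79.8 CPM in LT livers and 47.2, 72.2 and 58.2 CPM across livers labelled Fpn-LKO without overlap. Srebf1, which encodes SREBP-1, had 59.8 ± 12.7 and 41.8 ± 13.2 CPM (SD, n = 3 each). Of 8 temperature-responsive genes 4 were positive. The chaperone gene Hsp90aa1 had 315, 272 and 365 CPM in LT livers and 499, 381 and 704 CPM across livers labelled Fpn-LKO without overlap. Hsph1 had 47.8 ± 14.1 and 71.1 ± 13.5 CPM, and Cirbp, a cold-induced RNA-binding protein that acts on clock transcripts, had 8.17 ± 3.42 and 4.32 ± 1.77 CPM (SD, n = 3 each). Their part in the levels of the clock genes was not tested.

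Among 8998 genes with a mean of at least 5 CPM, the patterns nearest to a member were found by the root mean square difference of log2 CPM over the 6 libraries, each gene centred on its own mean. Mblac2 (0.041), Tomm6, Xylt2 and Atp7b (0.081) were nearest to Dbp, Apol9b (0.082), Arfgap3, Ercc2, Wars and Atpsckmt (0.18) to Arntl, and Apbb2 (0.082), Caln1, Elac1, Chn2 and Slc27a1 (0.10) to Per3. Mblac2 followed Dbp most closely, with 5.46, 5.52 and 5.66 CPM in LT livers and 6.54, 5.18 and 3.40 CPM across livers labelled Fpn-LKO.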
